A study of Mus musculus with 9 samples.

Results

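The 37 genes described here encode the proteins that license replication origins, unwind and copy DNA, supply thymidylate, and carry cells into S phase. They were chosen by name, as a list of replication licensing, fork, and nucleotide synthesis genes, with earlier results of these data known. All 37 were among the 24341 genes of the deposited table. The table holds mRNA levels in bulk liver from C57BL/6 mice labeled WT. Of the 9 mice, 3 (mice 2, 5, and 9) received anti-CD40, the agonist antibody FGK45 that activates the receptor CD40. The other 6 (mice 3, 4, 7, 8, 11, and 12) were controls, for which the sample records name PBS, and all livers were taken 48 hours after treatment. Ages are not in the labels, and the study's methods describe sex-matched young adult mice in general. Those methods also state that some experiments used colony mice carrying Cre under the Pdx promoter, and that treated mice without a fall of B cells in the blood were left out of analyses. Whether either applied to the sequenced mice is not stated. The question asked here was whether the replication genes moved together in the liver after anti-CD40, and which of them did not.

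Before a cell copies its DNA, the origin recognition complex, CDC6, and CDT1 load the ring-shaped MCM helicase onto origins, and CDC45 and the GINS complex then switch the helicase on. Polymerases primed by primase copy both strands behind it, held to DNA by the sliding clamp PCNA, which the RFC clamp loader places, and FEN1 and LIG1 finish the Okazaki fragments of the lagging strand. Hepatocytes of the adult liver rarely divide, and many replication genes are known to be transcribed at low levels in resting cells and to be induced by E2F factors as cells leave G1.

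Levels are given as FPKM, fragments scaled to transcript length and to the library, as the authors deposited them, with a floor of 0.01 that stands for no detected signal. How the libraries were scaled is not given in the sources used here. The median ratios of the mice were 1.004 to 1.010, so medians near 0 over all genes come with the deposited scale. The libraries were read from the 3′ end of each transcript, so FPKM should not be compared between genes, while for 1 gene the division by length leaves its fold change as it is. Genes detected above the floor numbered 15385 to 15545 per anti-CD40 mouse and 14684 to 15397 per control mouse. Read totals are not given in the table. By the steps between low values, the reads behind the same FPKM ranged from 0.870 to 1.13 between mice, in relative terms. This is relative depth only if the libraries were scaled to their read totals. Differences were tested with limma on log2(FPKM + 0.1), with Benjamini-Hochberg adjustment over the 13807 genes whose mean FPKM reached 0.1. Fold changes are on this scale, which understates the change of low genes. The p-values measure the spread between these mice, and in bulk tissue more cells of a type and more RNA per cell cannot be told apart. GENCODE places a coding gene over the 3′ end of 8 members (Cdt1, Mcm7, Gins2, Rfc2, Rfc4, Rfc5, Tk1, and Ccne2), and whether strand was used in counting is not given in the sources used here, so reads of such pairs may not be separated. Of the treated libraries, 1 stood apart. Anti-CD40 mouse 5 held transcripts of pancreatic acinar cells, with Prss2 at 102 FPKM and Try4 at 156 FPKM, against at most 0.582 and 0.521 in each of the other mice.

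Most replication genes were higher after anti-CD40, and 2 were lower. Of the 36 members tested, 24 had an adjusted p under 0.05 and were higher, 2 were lower (Mcm10 and Tk1), and 10 did not pass the threshold. Over all genes tested, 45.1% passed it, 23.5% as higher and 21.7% as lower, so the share of members called higher (66.7%) was above the background and the 2 lower members were below it. The median log2 fold change of the members was 0.90, against 0.0056 over all genes tested. At least a 2-fold difference was seen in 16 of the 24 higher members and in both lower ones. In 25 of the 37 members every anti-CD40 mouse was above every control mouse (22.7% of all genes tested), and in 2 every anti-CD40 mouse was below every control (19.6% of all genes tested). When the pseudocount, filter, scaling, model, or set of mice was changed, in 18 alternatives, 19 to 31 members were higher and 2 were lower each time. The 19 came with a mean FPKM of at least 1, a filter under which 30 members were tested. Without anti-CD40 mouse 5, 23 were higher and 2 lower, with a median of 1.01, and Rfc1 was the member whose call was lost.

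**Figure D1:**
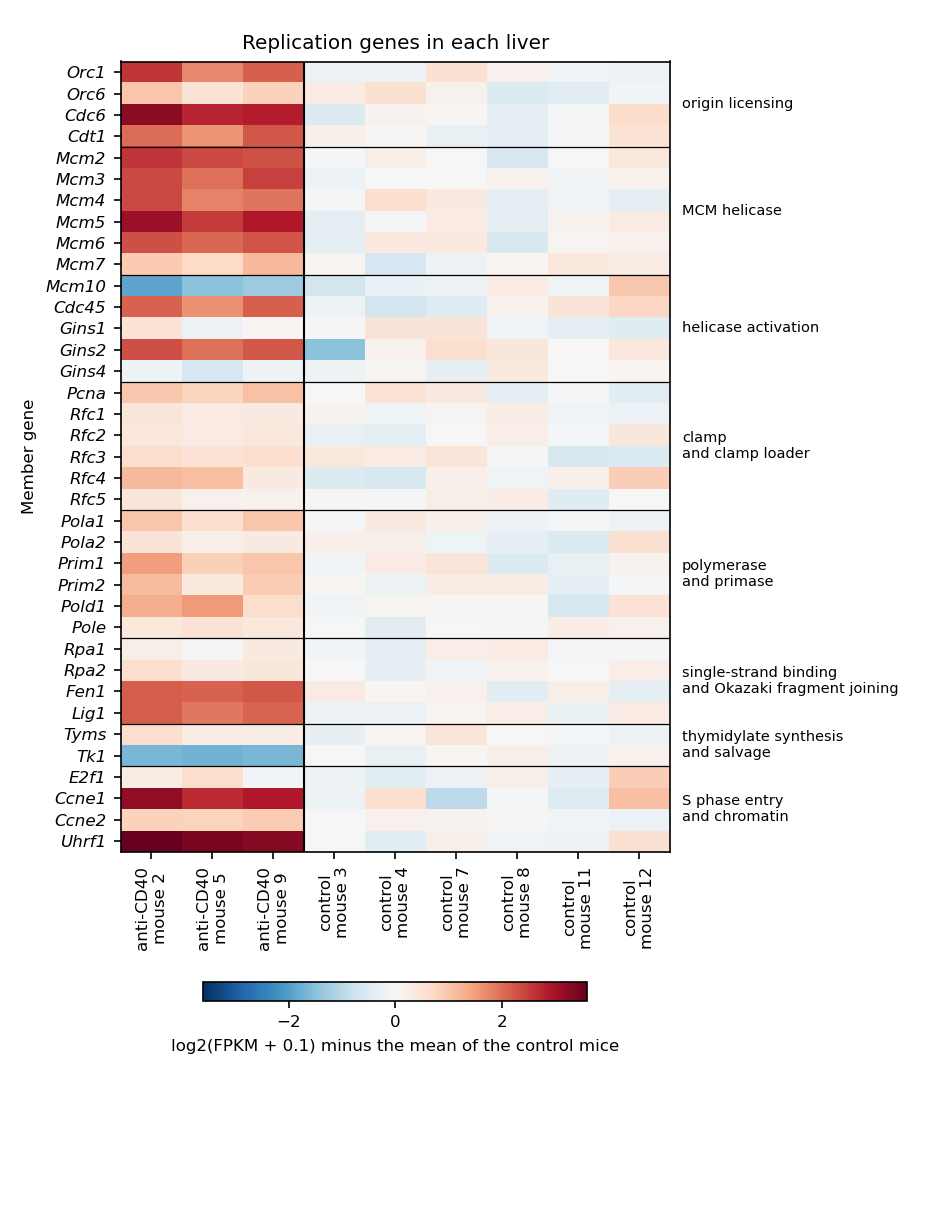
Each row is 1 of the 37 members, grouped by role, and each column is 1 mouse; the color is log2(FPKM + 0.1) minus the mean of the 6 control mice. The 3 anti-CD40 columns are mostly red, with Mcm10 and Tk1 blue, and the control columns are pale, with Gins2 in control mouse 3 the darkest square.

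The increase was shared by the 3 treated mice. Relative to the mean of the controls, the median difference over the 36 members was 1.06 on the log2 scale in anti-CD40 mouse 2, 0.81 in mouse 5, and 0.96 in mouse 9, and it lay between -0.09 and 0.15 in the control mice. Mouse 5 had the lowest FPKM of the treated mice for 21 of the 24 higher members, and mouse 2 the highest for 15. Mouse 5 is also the library with the pancreatic acinar transcripts, whose part in this order was not tested. Over all genes tested, the median difference was 0.0091, 0.022, and 0.0082 in the same treated mice. The members lie on 13 chromosomes, with 7 on chromosome 5 and 5 on chromosome 8.

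Promoter sequences are shown because many members moved together and 2 moved the other way. RefSeq promoters on GRCm38.p6, from 250 bases before to 50 bases after a transcript start, were found for 29 of the 37 members. They were searched on both strands for the E2F words TTTCCCGC, TTTCGCGC, TTTGGCGC, and TTTGCCGC, and for the CCAAT box CCAAT, with overlapping words each counted. An E2F word was present for 12 of the 29 members (41.4%), against 2.60% of the 27025 genes with a promoter in the table. These 12 were Orc1, Cdc6, Cdt1, Mcm3, Mcm5, Mcm6, Mcm7, Rfc3, Pola1, Pold1, Lig1, and Uhrf1, of which Rfc3 was not called and the others were higher. By call, the word was found for 11 of the 20 higher members with a promoter (55.0%), 1 of the 7 not called, and neither of the 2 lower members. The higher members with a promoter but no word were Orc6, Mcm2, Cdc45, Pcna, Rfc1, Prim1, Rpa2, Fen1, and Ccne1. A CCAAT box was present for 17 members (58.6%), against 41.1% of all genes. A match is a description of letters and was not tested against binding. The 250 bases before the start are printed here for 3 MCM genes, 2 licensing genes, and both lower members, 5′ to 3′ on the strand of the gene, with E2F words in capitals. Every higher member printed holds such a word, so the printed set does not show the share of higher members with one. They are chr4:108579204-108579453 on the plus strand for Orc1, chr11:98907901-98908150 on the plus strand for Cdc6, and chr8:75109259-75109508 on the plus strand for Mcm5. For the others they are chr1:128359706-128359955 for Mcm6, chr5:138171884-138172133 for Mcm7, chr2:5012792-5013041 for Mcm10, and chr11:117826015-117826264 for Tk1, each on the minus strand.
Orc1: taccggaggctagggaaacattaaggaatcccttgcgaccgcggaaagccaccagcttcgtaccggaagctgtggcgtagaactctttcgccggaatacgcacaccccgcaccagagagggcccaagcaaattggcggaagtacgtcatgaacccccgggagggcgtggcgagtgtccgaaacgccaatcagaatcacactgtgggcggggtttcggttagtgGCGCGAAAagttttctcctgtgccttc
Cdc6: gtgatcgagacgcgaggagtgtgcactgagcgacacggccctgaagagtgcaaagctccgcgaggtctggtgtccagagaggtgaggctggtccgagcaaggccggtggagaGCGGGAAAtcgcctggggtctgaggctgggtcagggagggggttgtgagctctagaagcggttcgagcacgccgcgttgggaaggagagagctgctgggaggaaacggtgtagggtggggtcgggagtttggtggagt
Mcm5: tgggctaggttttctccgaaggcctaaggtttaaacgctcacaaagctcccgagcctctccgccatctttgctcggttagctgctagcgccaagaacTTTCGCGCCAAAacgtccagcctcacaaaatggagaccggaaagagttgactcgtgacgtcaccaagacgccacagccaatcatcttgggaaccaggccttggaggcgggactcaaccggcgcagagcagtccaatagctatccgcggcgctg
Mcm6: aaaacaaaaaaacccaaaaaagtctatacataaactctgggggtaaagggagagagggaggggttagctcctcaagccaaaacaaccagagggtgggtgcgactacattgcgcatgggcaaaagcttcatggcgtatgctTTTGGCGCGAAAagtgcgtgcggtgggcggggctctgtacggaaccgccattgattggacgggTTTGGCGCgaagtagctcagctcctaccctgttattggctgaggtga
Mcm7: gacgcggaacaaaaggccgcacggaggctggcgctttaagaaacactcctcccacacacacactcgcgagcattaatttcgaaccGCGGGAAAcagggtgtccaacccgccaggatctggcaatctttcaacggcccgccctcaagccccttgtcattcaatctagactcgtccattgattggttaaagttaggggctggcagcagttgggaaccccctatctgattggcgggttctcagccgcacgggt
Mcm10: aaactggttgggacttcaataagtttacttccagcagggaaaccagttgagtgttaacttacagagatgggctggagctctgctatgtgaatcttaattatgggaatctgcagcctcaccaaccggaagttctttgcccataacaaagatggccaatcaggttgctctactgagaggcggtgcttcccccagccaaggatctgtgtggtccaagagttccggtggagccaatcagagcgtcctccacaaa
Tk1: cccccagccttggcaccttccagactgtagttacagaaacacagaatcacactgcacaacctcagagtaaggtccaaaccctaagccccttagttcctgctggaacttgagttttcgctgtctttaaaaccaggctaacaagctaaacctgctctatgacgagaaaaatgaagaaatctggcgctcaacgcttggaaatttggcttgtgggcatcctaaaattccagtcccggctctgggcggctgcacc
Orc1, Cdc6, and Mcm7 each show 1 E2F word in this stretch, Mcm5 shows 2 that overlap, and Mcm6 shows 3, of which 2 overlap. The E2F words begin at position -27 from the start in Orc1, -138 in Cdc6, and -165 in Mcm7. Counted from these starts, Mcm7 has a further word inside the transcript, from base 16 after the start. Gene starts differ between annotations. The printed Cdc6 stretch, with its word, lies within the Cdc6 interval given below (chr11:98907889-98923942). The promoters of Uhrf1 and Lig1 that hold a word also lie within their listed intervals. In GENCODE the Mcm7 stretch is inside the gene (to 138172422), as are parts of the Orc1 (from 108579423) and Tk1 (to 117826092) stretches.

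The 4 licensing genes were all higher after anti-CD40, with fold changes from 1.71 to 7.68. Cdc6, the ATPase that works with the origin recognition complex to load the helicase (chr11:98907889-98923942 in mm10), had an FPKM of 1.74, 1.18, and 1.26 in anti-CD40 mice 2, 5, and 9. In the controls its FPKM ranged from 0.0363 to 0.205, with a median of 0.0928. Every treated mouse was thus well above the highest control (mouse 12), and the mean was 1.39 ± 0.301 (SD, n = 3) against 0.0988 ± 0.0592 (SD, n = 6). The log2 fold change was 2.94 ± 0.27 (SE), which is 7.68-fold, with an adjusted p of 1.38e-05 from limma. Cdt1, which escorts the MCM ring to origins, had an FPKM of 13.1, 10.04, and 15.5 in the anti-CD40 mice, and the controls ranged from 2.51 to 4.50 with a median of 3.15. The groups were far apart, and the log2 fold change was 1.95 ± 0.20 (SE, adjusted p = 3.07e-05, limma).

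Orc1, the largest subunit of the origin recognition complex, was close to undetected in the controls. It was measured at 0.659, 0.324, and 0.458 FPKM in anti-CD40 mice 2, 5, and 9, and it was at the floor in control mice 3, 4, and 12 and at most 0.0858 in the others. In reads, as the smallest whole numbers that match the steps of the FPKM values, this was 41, 19, and 25 against 0, 0, 5, 2, 1, and 0, or 85 reads in the 3 treated mice and 8 in the 6 controls. The log2 fold change of 2.15 ± 0.27 (SE, adjusted p = 1.09e-04, limma) depended on the pseudocount, from 0.52 with 1 to 3.87 with 0.01. Orc6, another subunit, had an FPKM of 8.86, 6.18, and 7.93 after anti-CD40 and from 3.11 to 6.47, with a median of 4.51, in the controls. Here the groups overlapped, as control mouse 4 was above anti-CD40 mouse 5. The log2 fold change of 0.77 ± 0.24 (SE) had an adjusted p of 0.0212 from limma, which rose to 0.0970 without anti-CD40 mouse 2, to 0.0709 without mouse 9, and to 0.0624 with no filter on low genes.

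All 6 genes of the MCM helicase were higher, without overlap between the groups, with a median log2 fold change of 2.25. The subunits form 1 ring of 6 different proteins. Mcm3 had an FPKM of 14.4, 10.9, and 15.01 in anti-CD40 mice 2, 5, and 9, and from 2.30 to 2.97 with a median of 2.68 in the controls. The controls were tightly grouped and every treated mouse lay far above their highest value, giving means of 13.4 ± 2.23 and 2.68 ± 0.254. Its log2 fold change was 2.27 ± 0.14 (SE), with the lowest adjusted p among the members (1.38e-06, limma). Mcm5 had an FPKM of 10.2, 6.91, and 9.02 after anti-CD40 and from 0.857 to 1.42 (median 1.17) in the controls. Mouse 5 was the lowest of the treated mice and still far above control mouse 12, the highest control, and the change was 7.10-fold (log2 fold change 2.83 ± 0.20, adjusted p = 2.90e-06, limma).

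Mcm2 ranged from 5.64 to 6.85 FPKM in the treated mice and from 0.685 to 1.44 in the controls, a log2 fold change of 2.41 ± 0.20 (adjusted p = 7.42e-06, limma). Mcm4 ranged from 8.07 to 12.1 against 1.75 to 3.39 (2.03 ± 0.23, adjusted p = 5.29e-05, limma), and Mcm6 from 8.80 to 10.4 against 1.30 to 2.57 (2.22 ± 0.22, adjusted p = 2.11e-05, limma). These genes held 347 to 912 reads in each treated mouse and 37 to 237 in each control. Mcm7 changed least, with an FPKM of 5.04, 4.27, and 5.80 in the treated mice and from 1.64 to 3.36, with a median of 2.70, in the controls. The groups did not overlap, but the lowest treated mouse was near the highest control, and the change was 1.92-fold (log2 fold change 0.94 ± 0.21, adjusted p = 0.00462, limma). In each of the 3 anti-CD40 mice, the difference from the control mean was smallest for Mcm7, from 0.72 to 1.15 on the log2 scale, and largest for Mcm5, from 2.51 to 3.07. The 3′ end of Mcm7 is overlapped by Cops6 on the other strand. The Mcm7 interval also holds the microRNA genes Mir25, Mir93, and Mir106b, which were listed at the floor in every mouse.

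**Figure D2:**
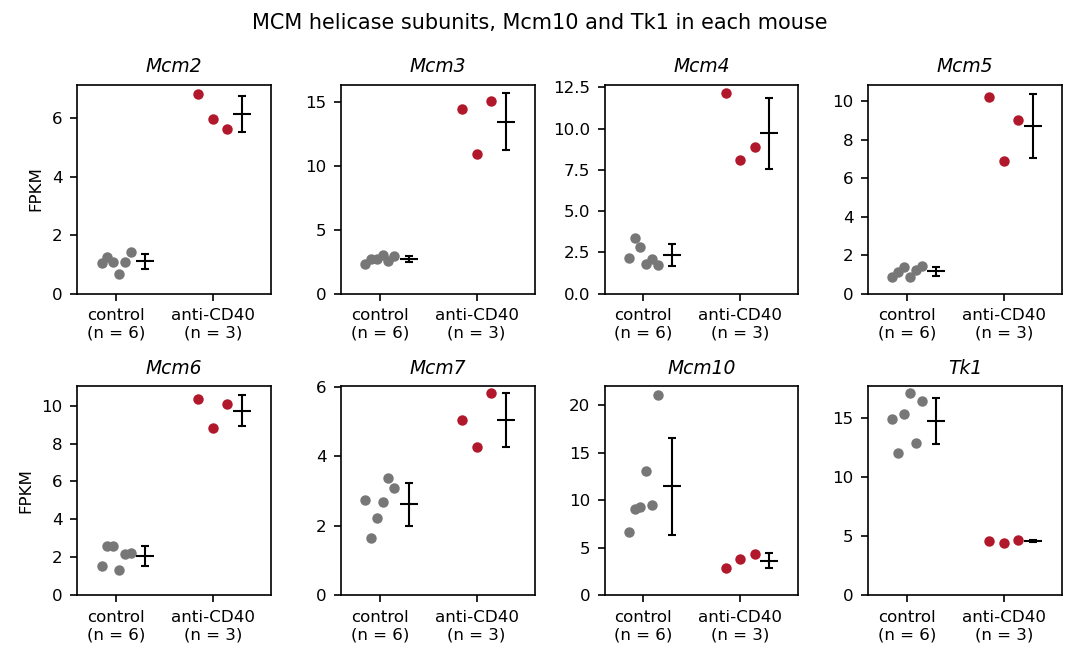
FPKM in each mouse for the 6 MCM helicase genes, Mcm10, and Tk1, with control mice in gray and anti-CD40 mice in red on linear axes from 0; crosses with bars are mean ± SD. The 3 treated mice lie above all 6 controls for the 6 helicase genes and below them for Mcm10 and Tk1, and the gap is narrowest for Mcm7.

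The genes that switch the helicase on did not move as 1 group: of 5, 2 were higher, 1 was lower, and 2 were not called. Cdc45, the factor that joins the MCM ring to form the active helicase, had an FPKM of 2.37, 1.69, and 2.41 in the anti-CD40 mice and from 0.248 to 0.853 (median 0.464) in the controls. The groups were apart, with a change of 3.93-fold (log2 fold change 1.98 ± 0.31, adjusted p = 5.29e-04, limma). Gins2, a subunit of GINS, had an FPKM of 14.0, 11.1, and 13.1 after anti-CD40 and from 0.911 to 4.10, with a median of 3.31, in the controls. Control mouse 3 was far below the other controls, and the treated mice were above all of them (4.52-fold, log2 fold change 2.18 ± 0.39, adjusted p = 0.00112, limma). Without control mouse 3 the log2 fold change was 1.88. Gins2 shares its interval in the table with Gse1, which lies over its 3′ end on the other strand and rose by less (log2 fold change 0.73, adjusted p = 0.00764, limma). The part of Gse1 in the Gins2 values was not tested.

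The other GINS subunits among the members were not called. Gins1 had an FPKM of 2.11, 1.25, and 1.58 in the anti-CD40 mice and from 1.07 to 2.09 (median 1.38) in the controls. These ranges overlapped almost wholly, and the log2 fold change of 0.12 ± 0.25 (adjusted p = 0.716, limma) changed sign with quantile normalization and without anti-CD40 mouse 2, when it was -0.062. Gins4 had a mean FPKM of 9.80 ± 1.64 after anti-CD40 and 12.3 ± 1.98 in the controls, with overlapping groups (log2 fold change -0.32, adjusted p = 0.128, limma), and its sign turned when the mice were rescaled without the acute phase genes Saa1, Saa2, and Saa3. Gins3, the remaining subunit and not a member, was higher by 1.35 on the log2 scale (adjusted p = 2.91e-04, limma).

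Mcm10, which despite its name is not part of the MCM ring but helps the helicase start to unwind DNA, was lower (chr2:4990724-5012791 in mm10). Anti-CD40 mice 2, 5, and 9 had an FPKM of 2.81, 3.74, and 4.35, and it ranged from 6.68 to 21.1 with a median of 9.38 in the controls. Every treated mouse was below every control, and control mouse 12 stood well above the rest. The means were 3.63 ± 0.776 (SD, n = 3) and 11.4 ± 5.16 (SD, n = 6), and the level was 2.93-fold lower (log2 fold change -1.55 ± 0.31, adjusted p = 0.00221, limma). Without control mouse 12 the log2 fold change was -1.35, and over all 18 alternatives run the adjusted p was at most 0.0158. No coding gene overlaps Mcm10 in GENCODE. Its 3′ end there (position 4989714) lies outside the listed interval, as do those of Rpa1, Rfc2, and Rfc5, among others. Whether reads from such ends were counted was not tested.

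The sliding clamp was higher, and of the 5 genes of its loader 1 was called, at 1.27-fold. Pcna, the clamp that tethers polymerases to DNA, had an FPKM of 9.59, 8.51, and 10.1 in the anti-CD40 mice and from 3.63 to 6.85 (median 4.72) in the controls. The groups did not overlap, and the change was 1.92-fold (log2 fold change 0.94 ± 0.20, adjusted p = 0.00335, limma). Rfc1, the large subunit of the loader, had an FPKM of 10.4, 9.51, and 9.74 against 6.73 to 9.32 (median 7.68). The treated mice lay just above the highest control (mouse 8), and the log2 fold change was 0.35 ± 0.13 with an adjusted p of 0.0474 from limma. The call for Rfc1 was lost in 10 of 18 alternatives, with adjusted p of 0.157, 0.0899, and 0.108 without anti-CD40 mouse 2, 5, or 9. Leaving out control mouse 3, 4, 7, 11, or 12 gave adjusted p from 0.0553 to 0.0852.

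The 4 small subunits of the loader were not called, with log2 fold changes of 0.86 for Rfc4, 0.58 for Rfc3, 0.36 for Rfc2, and 0.24 for Rfc5. Rfc5 had an FPKM of 21.3, 17.6, and 17.4 after anti-CD40 and from 11.6 to 19.2 (median 15.9) in the controls. Controls 7 and 8 were above anti-CD40 mice 5 and 9, and the adjusted p was 0.240 (limma). For Rfc3 every treated mouse was above every control, at 10.2 to 10.9 against 4.67 to 9.56, while the adjusted p was 0.0718 (limma). A call as higher appeared without 1 mouse for Rfc2 (adjusted p = 0.0323 without control mouse 12), for Rfc3 (0.0461 without control mouse 7), and for Rfc4 (0.0379 without anti-CD40 mouse 9 and 0.0133 without control mouse 12). Rfc4 shares its interval with Eif4a2, which lies over its 3′ end on the other strand and was lower (log2 fold change -1.23, adjusted p = 0.0143, limma). Whether those reads entered the Rfc4 values was not tested.

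Of the 6 polymerase and primase genes, 5 were tested and 4 were higher, by 1.74-fold to 2.23-fold. Pola1, the catalytic subunit of polymerase alpha, which starts each new strand with primase, had an FPKM of 1.81, 1.33, and 1.83 in the anti-CD40 mice and from 0.733 to 1.101 (median 0.818) in the controls. Prim1, the catalytic subunit of primase, had an FPKM of 4.01, 2.57, and 2.79 against 0.928 to 1.89 (median 1.38). The groups did not overlap in either gene, with log2 fold changes of 0.86 ± 0.17 (adjusted p = 0.00240) and 1.12 ± 0.23 (adjusted p = 0.00274, limma). Pold1, the catalytic subunit of the lagging-strand polymerase delta, ranged from 0.847 to 1.68 FPKM against 0.312 to 0.775, and the gap between anti-CD40 mouse 9 and control mouse 12 was narrow. It changed by 1.16 on the log2 scale (adjusted p = 0.00464, limma). Prim2, the large subunit of primase, ranged from 0.921 to 1.66 FPKM against 0.538 to 0.871 and changed by 0.80 (adjusted p = 0.0113, limma), and its adjusted p was 0.0687 without anti-CD40 mouse 2, 0.0518 without mouse 9, and 0.131 with quantile normalization.

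Pola2, the accessory subunit of polymerase alpha, had an FPKM of 1.44, 1.21, and 1.30 after anti-CD40 and from 0.691 to 1.53 (median 1.05) in the controls. Control mouse 12 was above all 3 treated mice, and the log2 fold change of 0.33 did not pass the threshold (adjusted p = 0.253, limma). Pole, the catalytic subunit of the leading-strand polymerase epsilon, had a mean FPKM under 0.1 and was the only member not tested in the model. The anti-CD40 mice had an FPKM of 0.0911, 0.111, and 0.0892 and the controls 0.01 to 0.0763, or 14, 16, and 12 reads against 6, 0, 7, 5, 10, and 8. Each treated mouse was above each control, and the exact permutation test over all 84 groupings (2-sided) gave p = 0.0238, while limma with no filter gave an adjusted p of 0.0592.

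Both genes that finish Okazaki fragments were higher by over 2 on the log2 scale, while the changes of Rpa2 and Rpa1, which coat single-stranded DNA, were 0.44 and 0.19. Lig1, the ligase that seals the fragments (chr7:13258967-13311427), had an FPKM of 30.4, 25.1, and 28.8 in anti-CD40 mice 2, 5, and 9 and from 5.62 to 8.19, with a median of 6.50, in the controls. Fen1, the nuclease that trims their flaps (chr19:10199132-10203943), had an FPKM of 15.5, 14.96, and 16.1 against 2.50 to 4.19 (median 3.63). In both genes the treated mice lay close together and far above the highest control. The changes were 4.17-fold for Lig1 (log2 fold change 2.06 ± 0.15, adjusted p = 4.24e-06) and 4.50-fold for Fen1 (2.17 ± 0.17, adjusted p = 6.31e-06, limma). Lig1 shares its interval in the table with 6330408A02Rik, which was lower (log2 fold change -0.55, adjusted p = 0.0439, limma). The part of 6330408A02Rik in the Lig1 values was not tested. Rpa2 ranged from 19.5 to 23.5 FPKM against 12.7 to 18.5 and changed by 1.36-fold (adjusted p = 0.0196, limma), and by limma its adjusted p was 0.0974 without anti-CD40 mouse 2 and 0.0547 without mouse 9. Rpa1, the largest subunit of the same complex, had an FPKM of 11.5, 10.2, and 12.4 against 8.12 to 12.3 (median 9.45). The groups overlapped, and the log2 fold change was 0.19 ± 0.15 (adjusted p = 0.328, limma).

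The 2 thymidylate genes did not move together. Tk1, the cytosolic thymidine kinase that salvages thymidine, was lower (chr11:117815519-117839908). Anti-CD40 mice 2, 5, and 9 had an FPKM of 4.63, 4.45, and 4.64, and it ranged from 12.1 to 17.1 with a median of 15.1 in the controls. The treated mice were almost equal and well below the lowest control, with means of 4.57 ± 0.106 (SD, n = 3) and 14.8 ± 1.97 (SD, n = 6). The difference was 3.16-fold lower (log2 fold change -1.66 ± 0.13, adjusted p = 5.83e-06, limma), and in reads it was 116, 105, and 102 against 275 to 360. Tk1 shares its interval in the table with Afmid, a kynurenine pathway enzyme encoded on the other strand. Afmid was lower too, with a mean FPKM of 21.9 against 134 (log2 fold change -2.59, adjusted p = 2.88e-06, limma). The 3′ end of Tk1 is overlapped on the other strand by the gene model Gm20708, and whether reads from there entered the Tk1 values was not tested. Tyms, which makes thymidylate from deoxyuridylate, had an FPKM of 3.57, 2.80, and 2.78 against 1.86 to 3.12 (median 2.24). Control mouse 7 was above anti-CD40 mice 5 and 9, and the log2 fold change of 0.39 ± 0.17 did not pass the threshold (adjusted p = 0.0924, limma, and 0.0305 without control mouse 7).

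Of the genes of S phase entry and chromatin, 3 of 4 were higher, and they include the largest change among the members. Uhrf1, which brings maintenance DNA methylation to newly copied DNA (chr17:56303337-56323486), had an FPKM of 1.73, 1.50, and 1.38 in the anti-CD40 mice and from 0.0151 to 0.121 (median 0.0429) in the controls. The groups were far apart, with a change of 10.8-fold (log2 fold change 3.43 ± 0.23, adjusted p = 2.57e-06, limma), and its size ran from 1.27 to 4.77 on the log2 scale with pseudocounts of 1 and 0.01. Ccne1, cyclin E1, which drives entry into S phase with CDK2, had an FPKM of 3.07, 2.16, and 2.47 against 0.0826 to 0.634 (median 0.222). These were 119, 79, and 84 reads in the treated mice and 3 to 20 in the controls, and the change was 7.58-fold (log2 fold change 2.92 ± 0.39, adjusted p = 1.67e-04, limma). Ccne2, cyclin E2, ranged from 2.75 to 2.93 FPKM against 1.31 to 1.69 and changed by 1.80-fold (adjusted p = 3.63e-04, limma). Its 3′ end is overlapped by Ints8 on the other strand, which was not called (log2 fold change -0.39, adjusted p = 0.477, limma).

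E2f1, which encodes a transcription factor of replication genes, was not called. Its FPKM was 3.22, 4.20, and 2.50 after anti-CD40 and from 2.00 to 5.08 (median 2.33) in the controls. Control mouse 12 was above all treated mice, and the log2 fold change was 0.26 ± 0.28 (adjusted p = 0.483, limma). Other E2F genes, which are not members, differed by limma. E2f2 (log2 fold change 1.46, adjusted p = 0.00236), E2f7 (1.28, adjusted p = 0.00301), and E2f3 (0.43, adjusted p = 0.0411) were higher. E2f4, E2f5, and E2f8 were not called.

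**Figure D3:**
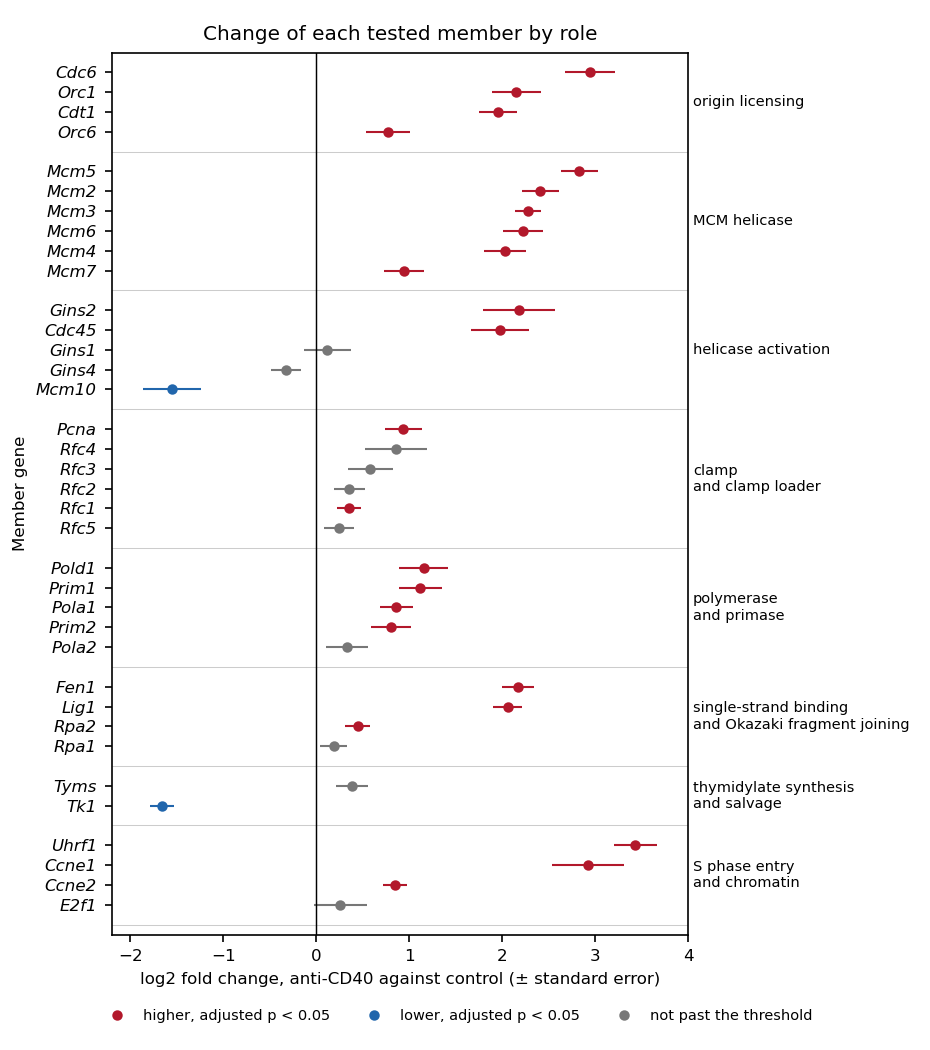
Log2 fold change of each of the 36 members tested, with bars for the standard error, grouped by role and ordered within it; red marks members higher and blue members lower with an adjusted p under 0.05, and gray those that did not pass. All 10 licensing and MCM genes are red, the clamp loader genes lie between 0.24 and 0.86, and Mcm10 and Tk1 are the only blue points.

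Other cell cycle genes, listed from general knowledge but with earlier results of these data known, gave a setting for the members. Of 104 such genes, 102 were tested, of which 72 were higher (70.6%) and 7 lower. Over all genes tested, 23.5% were higher and 21.7% lower. Among the other fork and origin genes, 19 of 31 were higher (61.3%) and 3 lower, with a median log2 fold change of 0.80. The share of lower genes among them was below that of all genes tested. The lowest adjusted p there were those of Chaf1a, a histone chaperone at the fork (log2 fold change 1.85, adjusted p = 2.91e-05, limma), and Clspn, a checkpoint adaptor at the fork (2.31, adjusted p = 3.79e-05, limma). The 3 lower genes were Rnaseh2c of ribonuclease H2 (-1.36), Orc5 of the origin recognition complex (-0.84), and Pold2 of polymerase delta (-0.92). Without anti-CD40 mouse 9, Pold2 had an adjusted p of 0.0503 (limma). Subunits of the origin recognition complex thus included Orc1, Orc6, and Orc2 (0.65) as higher, Orc5 as lower, and Orc3 (-0.20) and Orc4 (-0.03) as not called.

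Of 11 genes that supply the other DNA building blocks, 6 were higher and 3 lower, where 23.5% and 21.7% of all genes tested were, so the share of lower genes was near the background. Rrm1 and Rrm2, the subunits of ribonucleotide reductase in dividing cells, were higher, with log2 fold changes of 1.56 (adjusted p = 2.33e-04) and 2.06 (adjusted p = 4.47e-04, limma). Samhd1, which breaks down deoxynucleotides, was higher (1.47, adjusted p = 6.57e-06, limma). Among the lower genes were Shmt1 (-2.03, adjusted p = 2.01e-06, limma), a folate enzyme that feeds thymidylate synthesis and is abundant in liver, and Tk2 (-0.70, adjusted p = 9.43e-04, limma), the mitochondrial thymidine kinase.

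Of 26 other G1/S regulators and E2F targets, 17 were higher (65.4%, against 23.5% of all genes tested). None passed the threshold as lower, although 21.7% of all genes did. Ccna2, cyclin A2, changed by 3.37 on the log2 scale (adjusted p = 7.12e-06, limma) and Hells, a chromatin remodeler, by 3.28 (adjusted p = 7.04e-06, limma). Ccnd1, cyclin D1, which responds to growth signals in G1, had a mean FPKM of 37.4 ± 2.84 against 40.3 ± 14.8, with a log2 fold change of -0.02 (adjusted p = 0.965, limma). Its sign was not stable across alternatives. Of 11 cell cycle inhibitors, 7 were higher (63.6%) and Cdkn1c was lower (-1.36, adjusted p = 4.67e-04, limma). Cdkn2a (2.06, adjusted p = 1.56e-04) and Btg2 (1.80, adjusted p = 2.60e-04, limma) had the lowest adjusted p. Cdkn1a, which encodes the CDK inhibitor p21, had an FPKM of 37.5, 55.7, and 61.1 in the anti-CD40 mice, 24.4 and 28.5 in control mice 11 and 12, and 2.24 to 5.29 in the other controls. The treated mice were above all controls, and the log2 fold change was 2.87 ± 0.79 (adjusted p = 0.0128, limma, and 0.0565 with no filter).

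All 23 mitosis genes were higher, with no overlap between groups and a median log2 fold change of 2.54. Over all genes tested, 23.5% were higher and 22.7% had every anti-CD40 mouse above every control mouse. Top2a, the topoisomerase that untangles chromosomes, had an FPKM of 13.6, 11.2, and 12.4 after anti-CD40 and from 0.397 to 1.35 in the controls (log2 fold change 3.89, adjusted p = 5.09e-06, limma). Bub1b, a spindle checkpoint kinase, changed by 2.71 (adjusted p = 5.46e-06, limma). Mki67, the proliferation antigen Ki-67, changed by 2.20 (adjusted p = 1.13e-05, limma). The promoters of this list differed from those of the members in their letters: an E2F word was found for 1 of 20 of its genes and a CCAAT box for 18 of 20. In the other lists, an E2F word was found for 8 of 17 G1/S regulators and E2F targets (47.1%) and 8 of 28 fork and origin genes (28.6%). It was found for 1 of 10 cell cycle inhibitors and 0 of 9 nucleotide supply genes.

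**Figure D4:**
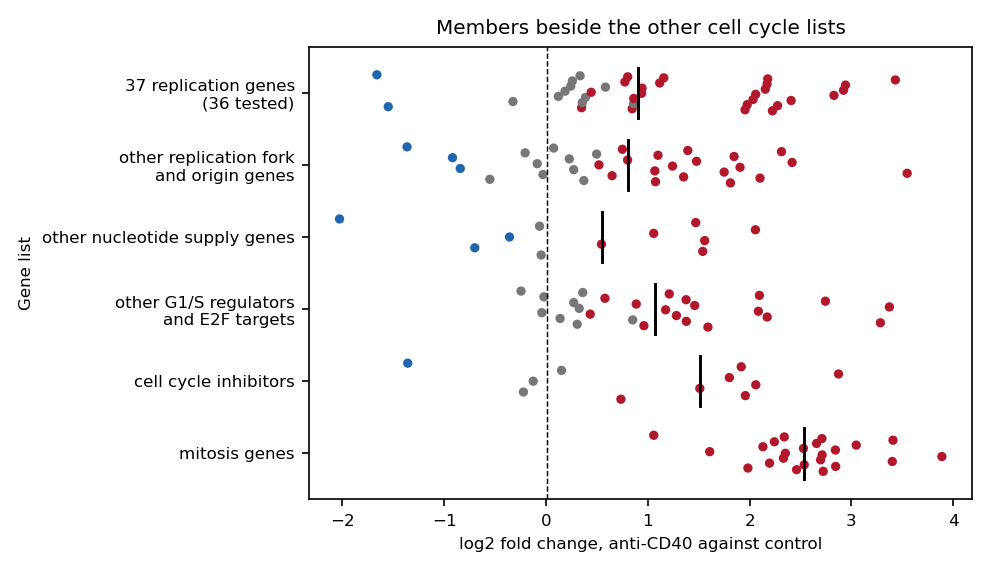
Log2 fold change of every tested gene of the members and of 5 other cell cycle lists, 1 point a gene, with red for higher and blue for lower at an adjusted p under 0.05 and gray for not called; black ticks are list medians and the dashed line is the median of all genes tested. The median is 0.90 for the members and 2.54 for the mitosis genes, whose points all lie to the right of 1.

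Markers of other cell types moved with the treatment beside these genes. Their FPKM was summed within each list, a sum that the genes of highest FPKM dominate. The counts of calls below stand beside 23.5% higher and 21.7% lower over all genes tested. All 9 neutrophil markers in the table were higher, and their summed FPKM was 4225 to 5215 after anti-CD40 against 19.2 to 157 in the controls. Of 6 granulocyte precursor markers, both that could be tested were higher (sum 4.88 to 9.05 against 0.526 to 3.09). Of 9 monocyte and macrophage markers, 7 were higher and 1 lower (288 to 405 against 46.6 to 82.3). For lymphocytes, 7 of 8 T cell markers (12.5 to 14.4 against 2.99 to 5.24) were higher. Of 7 NK cell markers, all 5 that could be tested were higher (62.0 to 85.9 against 2.82 to 11.6). Of 7 B cell markers, all 6 that could be tested were higher (26.3 to 37.4 against 1.87 to 7.35). Of 7 plasma cell markers, 6 were tested and 3 were higher, among them Mzb1 with 41.2 to 65.7 FPKM against 1.198 to 6.51. The sum of the plasma cell list (248 to 259 against 202 to 257) was mostly Sdc1 and Xbp1, which were not called. Of 7 endothelial markers 2 were higher and 3 lower (77.9 to 88.5 against 82.6 to 108). Of 9 erythroid precursor markers, 6 were tested, of which none was higher and 2 were lower (1079 to 3938 against 2071 to 15099). This sum was mostly Hbb-bt, at 14930 FPKM in control mouse 4 and 2035 to 3688 in the other controls. Hba-a1, which shares its position with Hba-a2, was at the floor in every mouse, and the reason was not tested. None of 9 pancreatic acinar markers was called, with Amy2a5 at the floor in every mouse. The 8 others were each highest in anti-CD40 mouse 5, whose sum was 829, and the lowest sum of a treated mouse was 27.7, against 71.2 to 196 in the controls. Hepatocyte markers, which mark the labeled tissue, were present in all mice, and 7 of 8 were lower (4829 to 5655 against 14364 to 24782). The cells in which the replication genes were transcribed cannot be told apart in bulk RNA, and the part of these cell types in the members' values was not tested.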

How the data were processed

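RNA from the livers of 9 mice was sequenced from the 3′ end. Per the methods, the authors used STAR for alignment to mm10, then Cufflinks and CuffDiff, and the deposited table holds FPKM values per gene and mouse. The annotation, the strand setting, and any filter are not given in the sources used here. Genes marked as failed in at least 1 mouse (15) were dropped, which left 24326. The deposited FPKM were tested as log2(FPKM + 0.1) with limma 3.58.1 in R 4.3.3 (2-sided, with an eBayes trend and no covariate) in the 13807 genes whose mean FPKM reached 0.1, at an adjusted p under 0.05. No scaling was added, since the median ratios of the mice were 1.004 to 1.010. Single genes were also examined with the exact permutation test (2-sided, all 84 groupings), whose smallest p is 0.0119. The 37 members and all other lists were chosen with earlier results of these data known.

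Mice were grouped by the sample labels. Every-mouse values are given for the 2 members with the lowest and the 1 with the highest adjusted p in each role. Mcm10, Orc1, Pole, and others shown by mouse were added after their values were seen. From each other list, the 2 genes with the lowest adjusted p, genes called against their list, and Cdkn1a, Ccnd1, Rrm1, Rrm2, Mki67, and Top2a are named, except 1 gene that is not reported here. The other GINS and origin recognition complex subunits, the other E2F genes, and the markers shown by value were added later. Absolute depth is unknown. Whole reads, within 0.02 of a read in every mouse, were recovered for 25 of the 37 members and for 54.8% of 13743 genes. They are the smallest whole numbers that match, so true reads could be higher. Start positions were counted from 1. Overlaps of genes were read from GENCODE and promoters from RefSeq. Python 3.11.15, numpy 2.4.6, pandas 2.3.3, and matplotlib 3.10.9 did the other steps. The test was checked on simulated data. Alternatives were a pseudocount of 1 or 0.01, testing all genes or those whose mean FPKM reached 1, quantile or median of ratios scaling, leaving out Saa1, Saa2, and Saa3 with rescaling, eBayes without trend or robust, and leaving out each mouse.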

Additional observations from a re-analysis of the deposited data

Results flagged for a closer look

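The 6 control mice were examined for each of the 37 members, on the log2(FPKM + 0.1) scale, and 1 member had a mouse far from the others. Gins2 was at 0.911 FPKM in control mouse 3, against 2.67 in the next lowest control, a gap of 0.709 of the range of the group on the log2 scale and 0.553 on the FPKM scale. On the FPKM scale itself, Gins2 would not stand apart, and the 1 member that would is E2f1, for which control mouse 12 was highest with a gap of 0.633, against 0.524 on the log2 scale. Chance gives such a gap in about 1 of 20 groups, or about 1.85 of 37.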

How the results depend on the processing

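Of the 36 members tested, 23 kept their direction and their side of the threshold under all alternatives run. Members called higher numbered 19 to 31 over the 18 alternatives and 20 to 25 when 1 mouse was left out, and members called lower numbered 2 each time. The 19 came with a mean FPKM of at least 1, when 30 members were tested. Leaving out Saa1, Saa2, and Saa3 and rescaling each mouse to an equal FPKM total gave 5635 genes higher and 1647 lower over the table, against 3240 and 2990. With this rescaling the median over all tested genes shifted to 0.35 on the log2 scale. The 31 members called higher there are relative to that shift. Higher genes made up 52.0% of those called, 77.4% with that rescaling, 46.4% with quantile normalization, and 44.7% with a mean FPKM of at least 1, a filter that left 44 genes of the other cell cycle lists higher, against 72, because fewer were tested. The log2 fold change changed sign for Gins1, Gins4, and Ccnd1. For Gins1 it was -0.17 with quantile normalization and -0.062 to 0.29 leaving out 1 mouse, negative without anti-CD40 mouse 2. For Gins4 it was 0.039 with the rescaling to an equal FPKM total. For Ccnd1 it was 0.23 with quantile normalization and 0.35 with that rescaling. Leaving out 1 mouse gave -0.20 to 0.10 for Ccnd1, positive without anti-CD40 mouse 2 or control mouse 7, 11, or 12. None of these reversed values passed the threshold, and the cause was not tested. Calls were lost under at least 1 alternative for Orc6, Rfc1, Prim2, and Rpa2, and 7 members gained one. No paired analysis was possible because the groups share no mouse numbers. With no read totals, no counting intervals could be given.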
